A study of Mus musculus with 6 samples.

Results

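The Kit, IL-3 and IL-33 receptor axis was followed as 10 genes in mouse mast cells: Kit and its ligand gene Kitl, the IL-3 receptor genes Il3ra, Csf2rb and Csf2rb2, the IL-33 receptor gene Il1rl1 and the ligand gene Il33, and the signalling genes Stat5a, Stat5b and Cish. Members were all noncontrol probes whose gene name in the scanner files was one of these symbols. This gave 15 probes of 10 genes, out of 39429 probes of 29603 genes on the array, and 4 of the 10 genes had several probes. The accession given with each of the 15 probes named the same gene in the RefSeq gene table.

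Total RNA of bone marrow-derived mast cells was hybridised to 6 single-colour Cy3 Agilent arrays, 1 per group. In 4 groups the mast cells had been cocultured for 4 days with Swiss 3T3 cells, an established mouse fibroblast line: mast cells labelled Pla2g3-/- on wild-type fibroblasts, wild-type mast cells on Lpar1-/- fibroblasts, wild-type mast cells on Lpar1+/+ fibroblasts, and Pla2g3+/+ mast cells on wild-type fibroblasts. The remaining groups were mast cells labelled Pla2g3-/- and Pla2g3+/+ mast cells, both without fibroblasts ("alone"). Pla2g3 is the gene of a phospholipase A2 that cells release, Lpar1 that of a lysophosphatidic acid receptor, and the design asks how each bears on mast cells that mature in contact with fibroblasts. All mast cells had been grown in IL-3 at 10 ng/ml, and the cocultures received stem cell factor, the Kit ligand, at 100 ng/ml. The labels do not say whether the cultures without fibroblasts also received it. The Lpar1-/- fibroblasts came from CRISPR/Cas9 editing followed by single-cell cloning, and the labels name no other edited clone. The labels give no strain or age, nor whether the wild-type mast cells of different arrays share animals.

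Each RNA was a pool of 3 samples, so no group had a replicate, no test across cultures was possible and no p-value is given. Levels are log2 processed intensity minus the 75th percentile of the array, which lay between 1230 and 1520 intensity units. Differences are log2 differences of such levels. Genes counted as higher or lower differed by 2-fold or more and were well above background on 1 or both arrays compared. A probe that was not well above background on an array is called dim there. The scanner's own error of a member's difference had a median of 0.20 and reached at most 0.21 outside Il33, for which it was 0.49 to 2.03 where an array was dim, and beyond that the precision is limited by having 1 array a group. The pair of wild-type cocultures gave a further measure of scatter: they differed by at most 0.17 in 14 of the 15 probes and by 0.40 in Il33, no member was past 2-fold, and 0.986% of all genes were (0.803% higher and 0.183% lower with Lpar1+/+ fibroblasts).

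In the RNA, all 12 mast cell markers were well above background on every array, Fcer1a and Cpa3 among them. Fibroblast RNA was also present in the cocultures. The summed linear level of 15 fibroblast markers was 15.2 on the coculture array labelled Pla2g3-/-, 32.5 with Lpar1-/- fibroblasts, 36.5 with Lpar1+/+ fibroblasts and 35.2 in the Pla2g3+/+ coculture, against 0.232 and 0.416 on the arrays labelled Pla2g3-/- and Pla2g3+/+ alone. In such bulk RNA, fewer cells of a type and less RNA per cell cannot be told apart. The arrays of cells alone lay on 1 slide and the cocultures on another, so coculture cannot be told apart from slide, whereas comparisons among cocultures lay within a slide. The Pla2g3 signal went against its labels: its level was 0.51 on the array labelled Pla2g3-/- alone, against -6.31 for Pla2g3+/+ alone, and -1.84 on the coculture array labelled Pla2g3-/-, against -7.31 in the Pla2g3+/+ coculture. In the cocultures of wild-type mast cells it was -4.85 with Lpar1-/- and -6.58 with Lpar1+/+ fibroblasts, also below both arrays labelled Pla2g3-/-. The labels do not say which part of Pla2g3 was deleted, and a probe outside that part does not check the deletion. Whether labels were exchanged between these groups was not tested. These groups are therefore called by their label throughout, and every direction drawn from them rests on that label. The Lpar1 probe read -3.89 with Lpar1-/- and -4.14 with Lpar1+/+ fibroblasts, in RNA of the mast cell fraction, and does not check the fibroblast genotype.

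Kit is the receptor tyrosine kinase for stem cell factor, on which mast cells depend for growth and survival. IL-3 signals through a heterodimer of an alpha chain, Il3ra, and a beta chain. The mouse has both Csf2rb, shared with the IL-5 and GM-CSF receptors, and Csf2rb2, which serves IL-3 alone. Beta chain signalling activates STAT5 through JAK2, Kit also activates STAT5, and STAT5 induces Cish, a SOCS family inhibitor that acts back on cytokine receptors. Il1rl1 encodes ST2, which with the Il1rap accessory chain forms the IL-33 receptor, and also a soluble form that binds IL-33 without signalling.

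The probes of the beta chain genes and of Il1rl1 are shown because the results turn on which transcript each one reads. Csf2rb and Csf2rb2 are near copies of each other on chromosome 15. One probe of each shared a stretch of 30 bases in which 27 matched, so each of these probes may also bind RNA of the other gene. The stretches, with the 3 differing bases in capitals, lie at chr15:78181197-78181226 on the plus strand and chr15:78113145-78113174 on the minus strand of mm9, the build named in the files.
Csf2rb (probe A_52_P52618): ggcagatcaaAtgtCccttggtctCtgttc
Csf2rb2 (probe A_51_P146753): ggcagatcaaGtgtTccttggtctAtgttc

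The second probes, A_66_P123635 for Csf2rb at chr15:78179504-78179563 and A_55_P2034663 for Csf2rb2 at chr15:78114097-78114156, shared no such stretch with a probe of the other gene. The best match of A_52_P52618 with A_55_P2034663 was 15 of 30 bases. How far each second probe matches the rest of the other gene's RNA was not examined.

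Il1rl1 had 3 probes on the plus strand of chromosome 1, which the files assign to different transcript variants. A_51_P339793 is assigned to variant 2, which codes for the soluble form, and the other probes to variant 1, which codes for the membrane receptor. Their first 30 bases start at chr1:40504769, chr1:40520014 and chr1:40522187 (mm9), the soluble one lying upstream of both others.
Il1rl1 variant 2, soluble (A_51_P339793): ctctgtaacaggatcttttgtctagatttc
Il1rl1 variant 1, membrane (A_55_P2027731): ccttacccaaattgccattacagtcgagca
Il1rl1 variant 1, membrane (A_55_P2027737): gccattgactccttgtgtgttttcttcatg

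Kit differed little between arrays. Its probe, at chr5:76052394-76052453, read 6.97 on the coculture array labelled Pla2g3-/-, 6.85 with Lpar1-/- fibroblasts, 6.49 with Lpar1+/+ fibroblasts and 6.62 in the Pla2g3+/+ coculture, against 6.58 and 6.72 on the arrays labelled Pla2g3-/- and Pla2g3+/+ alone. The arrays labelled Pla2g3-/- in coculture and with Lpar1-/- fibroblasts were the highest, and the whole range was 0.48, or 1.40-fold. The label Pla2g3-/- minus Pla2g3+/+ difference in coculture was 0.35 and the Lpar1-/- minus Lpar1+/+ difference was 0.36, each larger than the scanner error of 0.20 and both below 2-fold. Per the labels' protocols, mast cells could be isolated with beads against CD117, which is Kit. The labels do not say which route gave these RNAs, and the part of that step in the Kit level was not tested.

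Kitl, the gene of the Kit ligand, was well above background on all 6 arrays although the sample was a mast cell fraction. The probe at chr10:99558962-99559021 read -3.97 on the coculture array labelled Pla2g3-/-, -3.62 with Lpar1-/- fibroblasts, -4.79 with Lpar1+/+ fibroblasts and -4.77 in the Pla2g3+/+ coculture. It read -4.71 on the array labelled Pla2g3-/- alone and -4.62 for Pla2g3+/+ alone. Levels on the 4 arrays other than these 2 higher cocultures lay within 0.17 of each other, less than the scanner error. Kitl was 2.25-fold higher with Lpar1-/- than with Lpar1+/+ fibroblasts (1.17), and 0.80 higher on the coculture array labelled Pla2g3-/- than in the Pla2g3+/+ coculture, which is below 2-fold. With a background correction by normexp the Lpar1 difference was 0.72 and no longer past 2-fold. For Kitl, coculture minus alone was 0.74 on the arrays labelled Pla2g3-/-, where the fibroblast marker sum was 15.2 in coculture and 0.232 alone. It was -0.16 in Pla2g3+/+ cells, where the sum was 35.2 in coculture and 0.416 alone. The part of fibroblast RNA in the Kitl level was not tested.

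**Figure D1:**
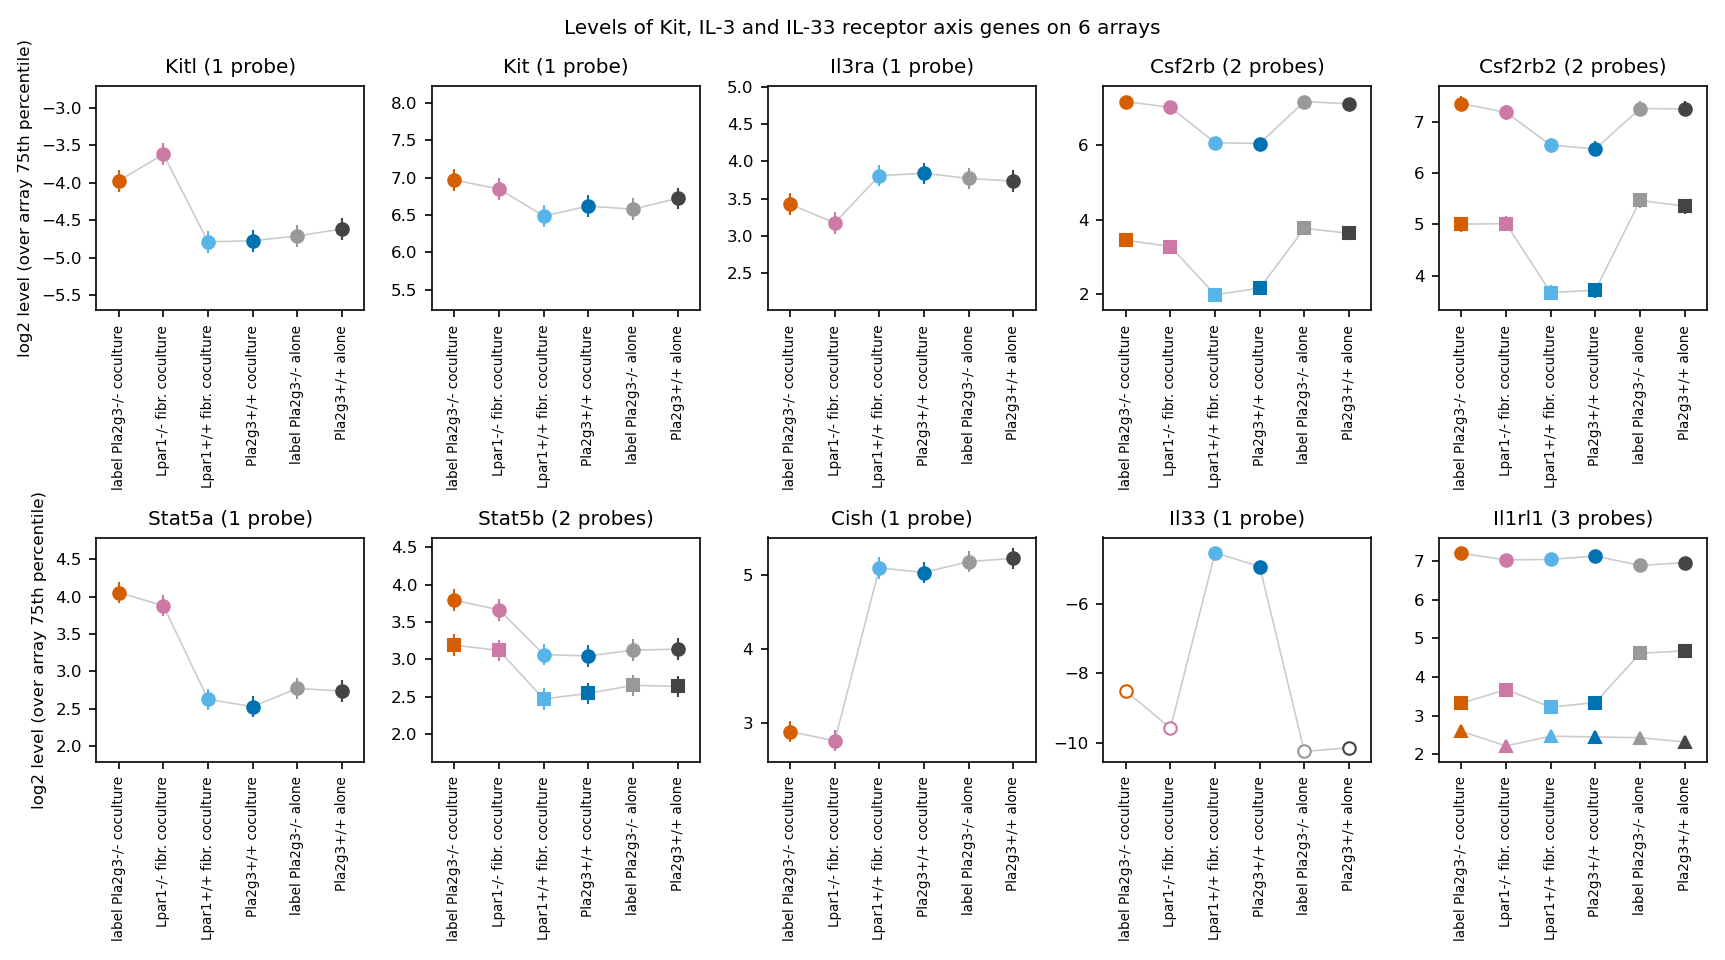
Log2 level over the array 75th percentile (y axis) of the 10 genes on the 6 arrays (x axis, 1 point per array and probe, circles for the brightest probe, squares and triangles for further probes). Bars are 1 scanner error, open symbols are not well above background, and y axes differ between panels. Cish, Stat5a, Stat5b and the beta chain genes separate the arrays labelled Pla2g3-/- in coculture and with Lpar1-/- fibroblasts from both wild-type cocultures.

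Among the IL-3 receptor genes, the alpha chain was lower and the beta chains were higher on the coculture array labelled Pla2g3-/- and with Lpar1-/- fibroblasts than in their wild-type cocultures. Il3ra, the IL-3 specific alpha chain, was read at chr14:15187898-15187957. Its level was 3.43 on the coculture array labelled Pla2g3-/-, 3.18 with Lpar1-/- fibroblasts, 3.81 with Lpar1+/+ fibroblasts, 3.84 in the Pla2g3+/+ coculture, 3.77 on the array labelled Pla2g3-/- alone and 3.73 for Pla2g3+/+ alone. The last 4 lay within the scanner error of each other. Its coculture minus alone difference was -0.35 on the arrays labelled Pla2g3-/- and 0.11 in Pla2g3+/+ cells. The label Pla2g3-/- minus Pla2g3+/+ difference in coculture was -0.41 and the Lpar1-/- minus Lpar1+/+ difference was -0.63, past the scanner error and below 2-fold.

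Csf2rb, the shared beta chain, was lower in wild-type coculture than in mast cells alone. Its brighter probe read 7.18 on the coculture array labelled Pla2g3-/-, 7.03 with Lpar1-/- fibroblasts, 6.07 with Lpar1+/+ fibroblasts and 6.05 in the Pla2g3+/+ coculture. On the array labelled Pla2g3-/- alone it read 7.19, and for Pla2g3+/+ alone 7.12. The wild-type cocultures were thus the only low arrays, and the other 4 lay within the scanner error of each other. Coculture minus alone was -0.00 on the arrays labelled Pla2g3-/- and -1.07 in Pla2g3+/+ cells.

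The second Csf2rb probe, which shared no long stretch with either Csf2rb2 probe, was low on the same arrays. Its levels were 3.44 on the coculture array labelled Pla2g3-/-, 3.27 with Lpar1-/- fibroblasts, 1.97 with Lpar1+/+ fibroblasts, 2.15 in the Pla2g3+/+ coculture, 3.76 on the array labelled Pla2g3-/- alone and 3.63 for Pla2g3+/+ alone. By this probe, coculture minus alone was -0.32 on the arrays labelled Pla2g3-/- and -1.48 in Pla2g3+/+ cells. Within coculture, the label Pla2g3-/- minus Pla2g3+/+ difference was 1.13 and 1.30 by the brighter and second probe, and the Lpar1-/- minus Lpar1+/+ difference was 0.95 and 1.30.

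Csf2rb2, the IL-3 specific beta chain, followed the same pattern with a larger difference between its probes. The second probe, the one without the shared stretch, read 5.0 on the coculture array labelled Pla2g3-/-, 5.01 with Lpar1-/- fibroblasts, 3.67 with Lpar1+/+ fibroblasts, 3.72 in the Pla2g3+/+ coculture, 5.47 on the array labelled Pla2g3-/- alone and 5.35 for Pla2g3+/+ alone. By this probe, coculture minus alone was -0.46 on the arrays labelled Pla2g3-/- and -1.64 in Pla2g3+/+ cells. The brighter probe, at chr15:78113126-78113185, was highest on the coculture array labelled Pla2g3-/- (7.35) and lowest in the Pla2g3+/+ coculture (6.47), and its coculture minus alone difference in Pla2g3+/+ cells was -0.78. As the brighter probe stood for the gene, Csf2rb2 was not counted as past 2-fold in any comparison, although its second probe was past 2-fold for Pla2g3+/+ coculture minus alone, for the label Pla2g3-/- minus Pla2g3+/+ in coculture (1.29) and for Lpar1-/- minus Lpar1+/+ fibroblasts (1.34).

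Granulocyte markers, which other beta chain expressing cells of marrow cultures carry, also moved in some of these comparisons. The summed linear level of 12 granulocyte markers was 7.16 in the Pla2g3+/+ coculture, with Epx and Ear2 dim, and 45.4 in Pla2g3+/+ cells alone, with all 12 above background. On the arrays labelled Pla2g3-/- it was 6.22 in coculture and 6.39 alone. With Lpar1-/- fibroblasts it was 17.3, against 6.96 with Lpar1+/+ fibroblasts. There 8 of 10 markers compared were higher and 0 lower, against 11.3% and 8.83% of all genes (median 1.70, against -0.05 over all genes). By its brighter probe, Csf2rb was 0.95 higher with Lpar1-/- than with Lpar1+/+ fibroblasts. In coculture it was 1.13 higher for the label Pla2g3-/- than for Pla2g3+/+. The granulocyte markers there had a median of -0.57, against -0.08 over all genes. Without fibroblasts Csf2rb differed by 0.06 between the same labels, where the markers had a median of -4.27. Of the basophil markers, 2 of 3 compared were lower and 0 higher for the label Pla2g3-/- against Pla2g3+/+ in coculture (10.4% and 9.10% of all genes). Without fibroblasts 2 of 3 were lower and 0 higher for the same labels (1.59% and 0.437%). With Lpar1-/- against Lpar1+/+ fibroblasts 1 of 4 was lower and 1 higher (8.83% and 11.3%). The part of granulocytes and basophils in the differences of the IL-3 receptor genes was not tested.

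Stat5a, one of the paired STAT5 transcription factor genes, was higher on the coculture array labelled Pla2g3-/- and with Lpar1-/- fibroblasts. The probe at chr11:100746373-100746432 read 4.06 on the coculture array labelled Pla2g3-/-, 3.88 with Lpar1-/- fibroblasts, 2.63 with Lpar1+/+ fibroblasts and 2.53 in the Pla2g3+/+ coculture. It read 2.77 on the array labelled Pla2g3-/- alone and 2.74 for Pla2g3+/+ alone. The first 2 arrays were apart from the other 4, which lay between 2.53 and 2.77. Within coculture Stat5a was 2.88-fold higher for the label Pla2g3-/- than for Pla2g3+/+ (1.53) and 2.38-fold higher with Lpar1-/- than with Lpar1+/+ fibroblasts (1.25).

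Stat5b, the neighbouring gene on chromosome 11, differed in the same direction by less. By its brighter probe, at chr11:100642045-100642104 on the minus strand, the level was 3.79 on the coculture array labelled Pla2g3-/-, 3.66 with Lpar1-/- fibroblasts, 3.06 with Lpar1+/+ fibroblasts, 3.04 in the Pla2g3+/+ coculture, 3.12 on the array labelled Pla2g3-/- alone and 3.14 for Pla2g3+/+ alone. The label Pla2g3-/- minus Pla2g3+/+ difference in coculture was 0.75 by this probe and 0.65 by the second. The Lpar1-/- minus Lpar1+/+ difference was 0.60 and 0.65. All 4 values were past the scanner error and below 2-fold. The best match between a Stat5a and a Stat5b probe was 16 of 30 bases.

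Cish, the STAT5-induced inhibitor, had the largest difference among the 9 members measured on all 6 arrays, and it ran opposite to Stat5a and Stat5b. The probe at chr9:107204196-107204255 read 2.88 on the coculture array labelled Pla2g3-/- and 2.75 with Lpar1-/- fibroblasts, against 5.09 with Lpar1+/+ fibroblasts and 5.03 in the Pla2g3+/+ coculture. It read 5.18 on the array labelled Pla2g3-/- alone and 5.22 for Pla2g3+/+ alone. The first 2 arrays were low, and the other 4 lay within the scanner error of each other. Cish was 4.43-fold lower for the label Pla2g3-/- than for Pla2g3+/+ in coculture (-2.15), and 5.05-fold lower with Lpar1-/- than with Lpar1+/+ fibroblasts (-2.34). Coculture minus alone was -2.30 on the arrays labelled Pla2g3-/- and -0.19 in Pla2g3+/+ cells.

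Il33, the IL-33 ligand gene, was well above background on the wild-type coculture arrays alone. Its probe at chr19:30035101-30035160 read -8.51 on the coculture array labelled Pla2g3-/- and -9.59 with Lpar1-/- fibroblasts, both not well above background, against -4.52 with Lpar1+/+ fibroblasts and -4.92 in the Pla2g3+/+ coculture. On the array labelled Pla2g3-/- alone it read -10.26 and for Pla2g3+/+ alone -10.15, again not well above background. For a dim array only a bound can be given. The floor was the lowest level that any probe well above background had on that array, or the dim probe's level where this was higher. On that basis Il33 was at least 9.0-fold lower on the coculture array labelled Pla2g3-/- than in the Pla2g3+/+ coculture, and at least 14.8-fold lower with Lpar1-/- than with Lpar1+/+ fibroblasts. It was at least 9.0-fold higher in the Pla2g3+/+ coculture than in Pla2g3+/+ cells alone. These bounds hold for this floor and background handling and are not guaranteed limits of the true difference. On the arrays labelled Pla2g3-/-, both coculture and cells alone were dim and no fold is given.

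The fibroblast marker sum, given above, was 15.2 on the coculture array labelled Pla2g3-/-, against 35.2 in the Pla2g3+/+ coculture, and its part in the Il33 difference was not tested. With Lpar1-/- fibroblasts the sum was 32.5, against 36.5 with Lpar1+/+ fibroblasts, and Il33 was dim with Lpar1-/- fibroblasts. The sum hides differences between markers. Of 14 compared, 4 were higher with Lpar1-/- fibroblasts (Thy1, Postn, Mmp2 and Pdgfrb) and 1 lower (Col6a1), against 11.3% and 8.83% of all genes. Thy1 read 0.76 with Lpar1-/- and -6.85 with Lpar1+/+ fibroblasts. It read -7.71 in the Pla2g3+/+ coculture, against -4.76 and -2.36 on the arrays labelled Pla2g3-/- and Pla2g3+/+ alone. Thy1 was thus higher in cells alone than in both wild-type cocultures and did not follow the fibroblast marker sum there. The part of these marker differences in the Il33 level was not tested. Of the 15 fibroblast markers, 14 were well above background with Lpar1-/- fibroblasts and 13 with Lpar1+/+ fibroblasts. Lum was dim on all 6 arrays, and Postn on all but the one with Lpar1-/- fibroblasts. The Il33 values depended on background handling: with normexp its difference was 0.72 for Pla2g3+/+ coculture minus alone, -0.56 for the label Pla2g3-/- minus Pla2g3+/+ in coculture and -1.02 for Lpar1-/- minus Lpar1+/+ fibroblasts, of which only the last stayed past 2-fold.

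The Il1rl1 probes split by transcript variant. The soluble variant probe read 3.33 on the coculture array labelled Pla2g3-/-, 3.68 with Lpar1-/- fibroblasts, 3.22 with Lpar1+/+ fibroblasts and 3.34 in the Pla2g3+/+ coculture. It read 4.61 on the array labelled Pla2g3-/- alone and 4.68 for Pla2g3+/+ alone, so that all 4 cocultures were below both arrays of cells alone. Coculture minus alone was -1.29 on the arrays labelled Pla2g3-/- and -1.34 in Pla2g3+/+ cells, or 2.44-fold and 2.53-fold lower. As coculture and slide coincide, which of them this difference goes with cannot be told apart.

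The brighter membrane variant probe, A_55_P2027737, read 7.21 on the coculture array labelled Pla2g3-/-, 7.03 with Lpar1-/- fibroblasts, 7.05 with Lpar1+/+ fibroblasts, 7.13 in the Pla2g3+/+ coculture, 6.89 on the array labelled Pla2g3-/- alone and 6.96 for Pla2g3+/+ alone. Coculture minus alone was 0.32 on the arrays labelled Pla2g3-/- and 0.17 in Pla2g3+/+ cells. The other membrane variant probe, A_55_P2027731, ranged from 2.22 with Lpar1-/- fibroblasts to 2.59 on the coculture array labelled Pla2g3-/-, with coculture minus alone differences of 0.16 on the arrays labelled Pla2g3-/- and 0.13 in Pla2g3+/+ cells. Neither membrane probe was past 2-fold in any comparison. Genotype differences within coculture were small for all 3 probes, between -0.02 and 0.14 for the label Pla2g3-/- minus Pla2g3+/+ and between -0.25 and 0.45 for Lpar1-/- minus Lpar1+/+ fibroblasts.

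Counted over genes by the brightest probe, coculture against cells alone on the arrays labelled Pla2g3-/- put 1 of 9 members higher (Stat5a) and 1 lower (Cish), when 18.7% of all genes compared were past 2-fold (11.4% higher and 7.31% lower). That share of members is near the background. In Pla2g3+/+ cells, 1 of 10 members was higher (Il33) and 1 lower (Csf2rb), against a background of 20.6% (13.0% higher and 7.52% lower), again a share near it. With the other wild-type coculture in place of the Pla2g3+/+ one, the same 2 genes were counted (background 19.5%, with 12.2% higher and 7.22% lower). Il33 passed the background filter through the coculture array alone, so it could be counted only as higher. The median difference over the members was 0.32 on the arrays labelled Pla2g3-/-, against 0.12 over all genes, and -0.13 in Pla2g3+/+ cells, against 0.13. The median over all genes for Pla2g3+/+ coculture minus alone was -0.02 after quantile normalization, a shift of the whole array by more than 0.1 that touches the small differences above.

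**Figure D2:**
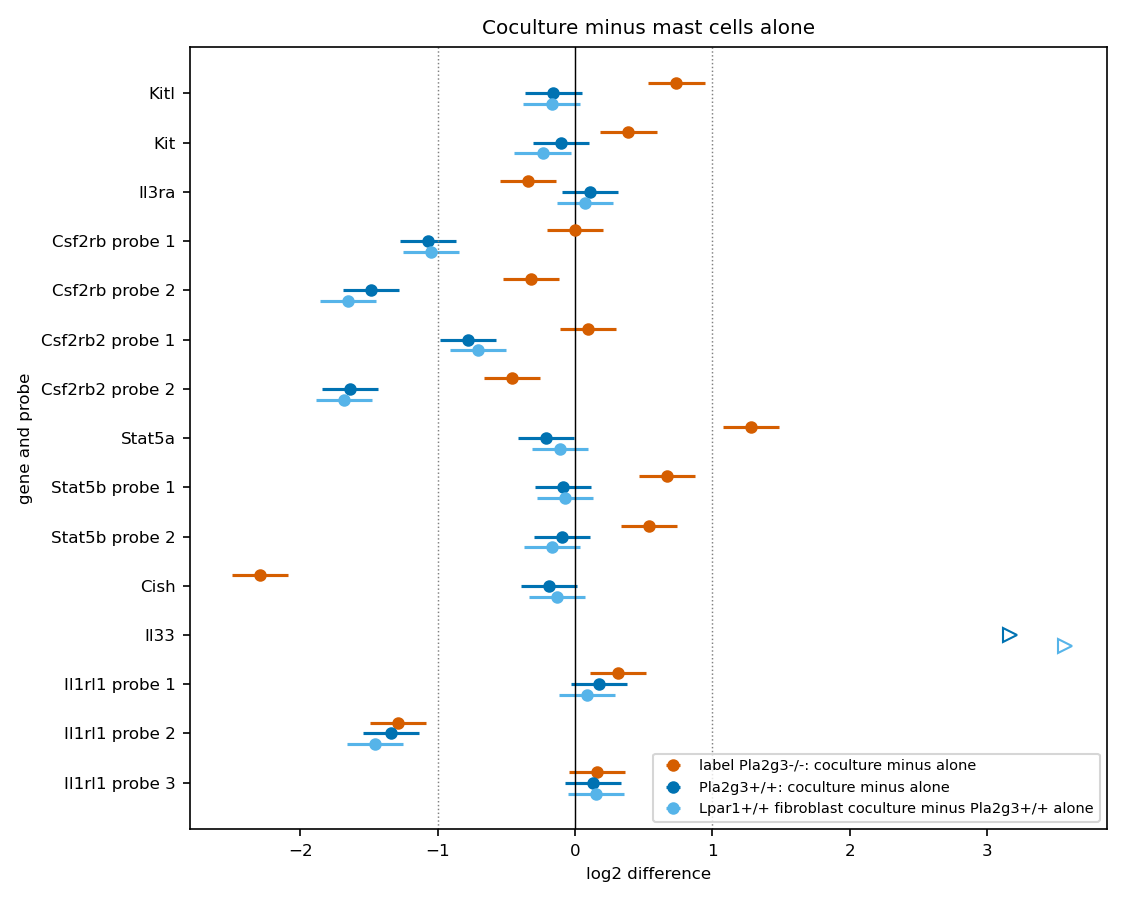
Log2 difference, coculture minus mast cells alone (x axis), for the 15 probes (y axis, probe 1 is the brightest). Points are arrays labelled Pla2g3-/-, Pla2g3+/+ cells, and the Lpar1+/+ fibroblast coculture minus Pla2g3+/+ cells alone, bars are 1 scanner error, triangles are bounds and dotted lines mark 2-fold. Cish lies at -2.30 and Stat5a at 1.28 for the label Pla2g3-/-, with -0.19 and -0.21 for Pla2g3+/+, while the Il1rl1 soluble variant probe (probe 2) lies between -1.46 and -1.29 in all 3.

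The difference between both coculture effects, in which the slide cancels, was -2.10 for Cish, 1.49 for Stat5a, 1.07 and 1.16 for the Csf2rb probes, 0.88 and 1.17 for the Csf2rb2 probes, 0.76 and 0.63 for the Stat5b probes, 0.90 for Kitl, 0.49 for Kit and -0.45 for Il3ra (label Pla2g3-/- minus Pla2g3+/+). For the 3 Il1rl1 probes it lay between 0.03 and 0.14, below its scanner error of 0.29. By the brightest probe, 4 of 10 members were past 2-fold, with 2 higher (Csf2rb, Stat5a) and 2 lower (Cish, Il33, the last from a level held at its bound), against a background of 20.0% (9.56% higher and 10.5% lower).

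Without fibroblasts, no member was past 2-fold between the label Pla2g3-/- and Pla2g3+/+ (0 of 9, background 2.03%, with 0.437% higher and 1.59% lower), and the largest difference of any of the probes other than the dim Il33 was -0.15, for Kit. In coculture, the same labels had 4 of 10 members past 2-fold, with 2 higher (Csf2rb, Stat5a) and 2 lower (Cish, Il33), against a background of 19.5% (9.10% higher and 10.4% lower). Against the Lpar1+/+ fibroblast coculture, the array labelled Pla2g3-/- had the same 4 genes past 2-fold (background 21.2%, with 9.34% higher and 11.9% lower). Lpar1-/- against Lpar1+/+ fibroblasts put 4 of 10 past 2-fold, with 2 higher (Kitl, Stat5a) and 2 lower (Cish, Il33), against a background of 20.1% (11.3% higher and 8.83% lower). In each of these comparisons between cocultures, Il33 passed the background filter through the wild-type array alone, so it could be counted only as lower.

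The coculture comparisons and the Pla2g3 label comparison share arrays, so their values are not independent of each other. The Pla2g3 label comparison and the Lpar1 comparison within coculture share no array. Of the 15 probes, 12 had the same sign in both, and the 3 others were the Il1rl1 probes. Over genes, 9 of 10 members had the same sign, when 81.6% of 22435 genes compared in both did. Genes past 2-fold in both and in the same direction were Stat5a, Cish and Il33 among the members: 1 of 2 higher and 2 of 2 lower genes of each comparison. In these counts Il33 could only be lower, as it was dim on the coculture array labelled Pla2g3-/- and with Lpar1-/- fibroblasts. Over all genes, 85.1% of those higher for the label Pla2g3-/- were higher with Lpar1-/- fibroblasts, which is 65.6% of those higher with Lpar1-/- fibroblasts. The genes lower in both were 65.6% of those lower for the label Pla2g3-/- and 72.7% of those lower with Lpar1-/- fibroblasts, so genes of the array at large share this likeness.

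**Figure D3:**
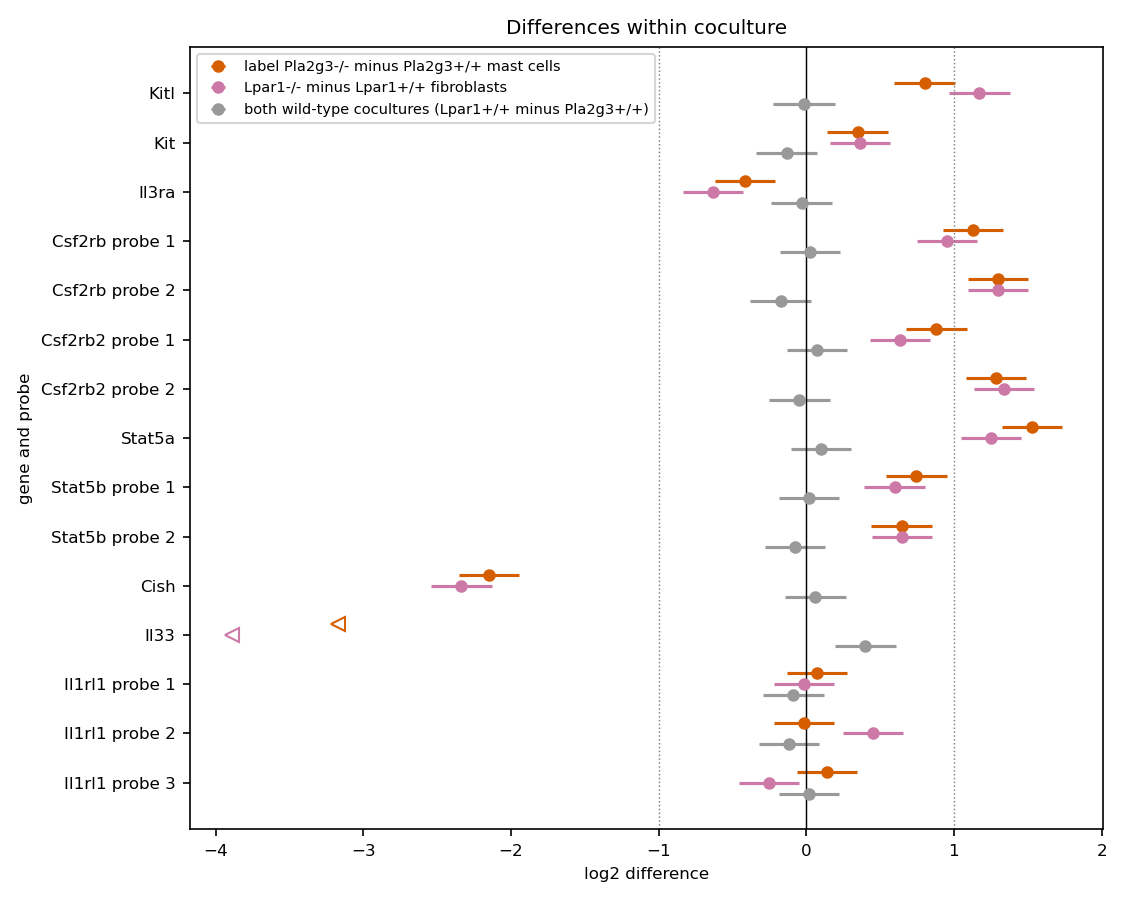
Log2 differences within coculture (x axis) for the 15 probes (y axis, probe 1 is the brightest): label Pla2g3-/- minus Pla2g3+/+ mast cells, Lpar1-/- minus Lpar1+/+ fibroblasts, and both wild-type cocultures (Lpar1+/+ minus Pla2g3+/+). Bars are 1 scanner error, triangles are bounds and dotted lines mark 2-fold. The wild-type pair stays between -0.17 and 0.40, while Cish lies at -2.15 and -2.34 and Stat5a at 1.53 and 1.25.

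Of 16 further genes known as STAT5 targets, chosen with earlier results of these data known, most were lower in coculture on the arrays labelled Pla2g3-/-. There 12 were lower and 2 higher of 16 compared, against 7.31% and 11.4% of all genes. Their median was -1.38, against 0.12 over all genes. In Pla2g3+/+ cells, 6 were lower and 2 higher, against 7.52% and 13.0% of all genes, with a median of -0.37 against 0.13. Within coculture, 6 were lower and 2 higher for the label Pla2g3-/- against Pla2g3+/+, when 10.4% and 9.10% of all genes were. The median was -0.63, against -0.08 over all genes. With Lpar1-/- against Lpar1+/+ fibroblasts 5 were lower and 2 higher, when 8.83% and 11.3% of all genes were (median -0.44, against -0.05). The list was not uniform. Socs3, a feedback inhibitor of cytokine receptors, read -1.44 on the coculture array labelled Pla2g3-/-, -0.85 with Lpar1-/- fibroblasts, 1.46 with Lpar1+/+ fibroblasts, 1.42 in the Pla2g3+/+ coculture, 1.22 on the array labelled Pla2g3-/- alone and 0.85 for Pla2g3+/+ alone. Like Cish, it was low on 2 arrays and spread by less than 1 unit over the other 4.

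Myc, the growth-promoting transcription factor, was low on the same 2 arrays, with -0.89 on the coculture array labelled Pla2g3-/- and -1.03 with Lpar1-/- fibroblasts, against 1.85 with Lpar1+/+ fibroblasts and 1.95 in the Pla2g3+/+ coculture. Its levels in cells alone were 2.20 for the label Pla2g3-/- and 2.15 for Pla2g3+/+. Socs1, another SOCS family inhibitor, was lower in every coculture: it read 0.07 on the coculture array labelled Pla2g3-/-, 0.70 with Lpar1-/- fibroblasts, 2.42 with Lpar1+/+ fibroblasts and 1.95 in the Pla2g3+/+ coculture, against 4.12 and 4.06 on the arrays labelled Pla2g3-/- and Pla2g3+/+ alone. Pim2, a survival kinase, was also lower in both coculture comparisons (-3.28 on the arrays labelled Pla2g3-/- and -3.40 in Pla2g3+/+ cells), with 0.31 for the label Pla2g3-/- minus Pla2g3+/+ in coculture.

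Other listed targets had other patterns over the 6 arrays. The list does not separate targets that STAT5 induces from targets that it represses, so no direction of STAT5 activity is read from it. Il2ra, the IL-2 receptor alpha chain, read -2.14 on the coculture array labelled Pla2g3-/- and -1.28 with Lpar1-/- fibroblasts, against -4.85 with Lpar1+/+ fibroblasts and -4.86 in the Pla2g3+/+ coculture, and 0.03 and 0.26 on the arrays labelled Pla2g3-/- and Pla2g3+/+ alone. It was thus lower in coculture and least so on the first 2 arrays. Bcl6, a transcriptional repressor, was higher in coculture, at 3.68 on the array labelled Pla2g3-/-, 2.88 with Lpar1-/- fibroblasts, 1.71 with Lpar1+/+ fibroblasts and 1.5 in the Pla2g3+/+ coculture, against -0.71 and -0.49 on the arrays labelled Pla2g3-/- and Pla2g3+/+ alone. Lifr, the receptor chain for leukaemia inhibitory factor, read -4.43 on the coculture array labelled Pla2g3-/- and -5.59 with Lpar1-/- fibroblasts, against -2.04 with Lpar1+/+ fibroblasts and -2.03 in the Pla2g3+/+ coculture. In cells alone it read -5.52 for the label Pla2g3-/- and -4.38 for Pla2g3+/+. Among cocultures Lifr was thus low on the same arrays as Cish. Unlike Cish, it was higher in coculture than alone, by 1.09 for the label Pla2g3-/- and 2.35 for Pla2g3+/+.

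**Figure D4:**
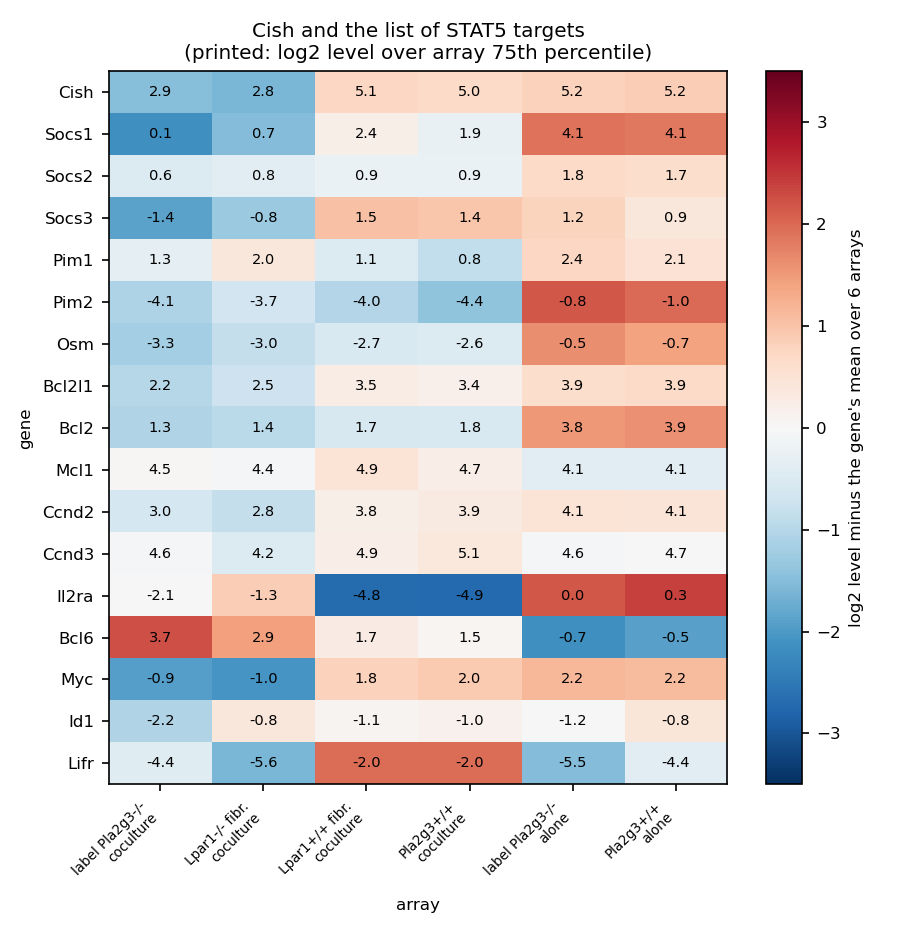
Cish and the 16 listed STAT5 targets (rows) on the 6 arrays (columns), printed as log2 level over the array 75th percentile and coloured by the difference from the gene's mean over 6 arrays. Cish, Socs3 and Myc are low on the arrays labelled Pla2g3-/- in coculture and with Lpar1-/- fibroblasts, Socs1 and Pim2 are lower in all cocultures than alone, and Bcl6 is higher in all of them.

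The next list held 16 genes of the beta chain cytokines, their other receptor chains and the JAK-STAT steps beside STAT5. Of these, 1 was higher and 1 lower in coculture against alone on the arrays labelled Pla2g3-/- (18.7% of all genes past 2-fold). In Pla2g3+/+ cells 2 of them were higher and 2 lower (20.6%). Il5ra, the IL-5 receptor alpha chain that pairs with Csf2rb, was the largest of them: it read -0.65 on the coculture array labelled Pla2g3-/-, -0.85 with Lpar1-/- fibroblasts, -0.15 with Lpar1+/+ fibroblasts and -0.24 in the Pla2g3+/+ coculture, against -3.26 and -3.43 on the arrays labelled Pla2g3-/- and Pla2g3+/+ alone. All cocultures were high and both arrays of cells alone low, by 2.61 for the label Pla2g3-/- and 3.19 for Pla2g3+/+. Ptpn2, a phosphatase that dampens JAK-STAT signalling, was lower in coculture than alone, with a difference of -1.19 for the label Pla2g3-/- and -1.57 for Pla2g3+/+.

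Between cocultures, 1 of 15 of these genes compared was higher and 1 lower for the label Pla2g3-/- (19.5% of all genes past 2-fold). The same counts of 16 held for Lpar1-/- fibroblasts (20.1%). Stat3, a STAT activated by other cytokine receptors, read 3.90 on the coculture array labelled Pla2g3-/- and 3.83 with Lpar1-/- fibroblasts, against 2.50 with Lpar1+/+ fibroblasts and 2.52 in the Pla2g3+/+ coculture, differences of 1.38 and 1.33. Csf2, which encodes GM-CSF, was lower in the same comparisons (-2.50 and -1.93). Jak2, the kinase bound to the beta chain, differed by 0.40 for the label Pla2g3-/- against Pla2g3+/+ and by 0.54 for Lpar1-/- against Lpar1+/+ fibroblasts, and Il3 itself by 0.32 in both.

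Of 32 genes of Kit signalling, 3 were lower and 0 higher in coculture against alone on the arrays labelled Pla2g3-/- (18.7% of all genes past 2-fold), and 4 lower and 0 higher in Pla2g3+/+ cells (20.6%). For the label Pla2g3-/- against Pla2g3+/+ in coculture 2 were lower and 0 higher (19.5%). For Lpar1-/- against Lpar1+/+ fibroblasts 5 were lower and 1 higher, a share near the 20.1% of all genes. Spred2, an inhibitor of the RAS-ERK pathway below Kit, read -4.27 on the coculture array labelled Pla2g3-/- and -3.83 with Lpar1-/- fibroblasts, against -0.43 with Lpar1+/+ fibroblasts and -0.40 in the Pla2g3+/+ coculture, and -1.0 and -1.10 on the arrays labelled Pla2g3-/- and Pla2g3+/+ alone. It was low on the same arrays as Cish, 14.7-fold lower for the label Pla2g3-/- than for Pla2g3+/+ in coculture. Pik3cd, a catalytic PI3-kinase subunit, had a coculture minus alone difference of -1.91 for the label Pla2g3-/- and -2.61 for Pla2g3+/+.

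Among relatives of Kit with a similar receptor structure, Pdgfra was at least 28-fold higher in coculture for the label Pla2g3-/- and at least 34.5-fold higher for Pla2g3+/+, and Pdgfrb was higher by 2.92 and 2.19. These receptors are known from fibroblasts, and Pdgfrb is one of the fibroblast markers counted above. Flt3l, the ligand of the related receptor Flt3, read 3.74 on the coculture array labelled Pla2g3-/- and 3.69 with Lpar1-/- fibroblasts, against 2.49 with Lpar1+/+ fibroblasts and 2.44 in the Pla2g3+/+ coculture. In cells alone it read 4.16 for the label Pla2g3-/- and 4.02 for Pla2g3+/+, so the wild-type cocultures were the low arrays, as for Csf2rb.

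Of 20 genes of the ST2 signalling route, 0 were past 2-fold in coculture against alone on the arrays labelled Pla2g3-/- (18.7% of all genes). In Pla2g3+/+ cells 1 was higher and 1 lower (20.6% of all genes past 2-fold). For the label Pla2g3-/- against Pla2g3+/+ in coculture 1 was higher and 1 lower (19.5%). With Lpar1-/- against Lpar1+/+ fibroblasts 2 were higher and 4 lower (20.1%). Il1rap, the accessory chain, read -1.34 on the coculture array labelled Pla2g3-/- and -1.20 with Lpar1-/- fibroblasts, against -2.40 with Lpar1+/+ fibroblasts and -2.29 in the Pla2g3+/+ coculture, and -2.33 and -2.39 on the arrays labelled Pla2g3-/- and Pla2g3+/+ alone. It was high on the same arrays as Stat5a, by 0.95 for the label Pla2g3-/- and 1.20 for Lpar1-/- fibroblasts.

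Nfkbia, an inhibitor and target of NF-kB, read 1.89 on the coculture array labelled Pla2g3-/- and 2.02 with Lpar1-/- fibroblasts, against 4.59 with Lpar1+/+ fibroblasts and 3.93 in the Pla2g3+/+ coculture. In cells alone it read 1.58 for the label Pla2g3-/- and 1.96 for Pla2g3+/+, so the wild-type cocultures were high. Irak3, an inhibitor of IL-1 receptor family signalling, was lowest in the wild-type cocultures, at -0.15 on the coculture array labelled Pla2g3-/- and 0.39 with Lpar1-/- fibroblasts, against -1.64 with Lpar1+/+ fibroblasts and -1.83 in the Pla2g3+/+ coculture, and -0.47 and -0.28 on the arrays labelled Pla2g3-/- and Pla2g3+/+ alone.

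Cytokines that mast cells are known to make on IL-33 stimulation were divided. In coculture against alone, 4 of 10 compared were lower and 0 higher on the arrays labelled Pla2g3-/- (18.7% of all genes past 2-fold). In Pla2g3+/+ cells 5 of 10 were lower and 5 higher (20.6%). Of 9 compared, 6 were lower and 2 higher for the label Pla2g3-/- against Pla2g3+/+ in coculture (19.5% of all genes past 2-fold). Of 11 compared, 6 were lower and 2 higher with Lpar1-/- against Lpar1+/+ fibroblasts (20.1%). Tnf read -6.48 on the coculture array labelled Pla2g3-/- and -7.33 with Lpar1-/- fibroblasts, against 2.58 with Lpar1+/+ fibroblasts and 2.04 in the Pla2g3+/+ coculture, and -1.80 and -1.78 on the arrays labelled Pla2g3-/- and Pla2g3+/+ alone. Its wild-type cocultures were the highest arrays and the first 2 the lowest. Il1b was low in the wild-type cocultures, at -1.87 on the coculture array labelled Pla2g3-/- and -1.94 with Lpar1-/- fibroblasts, against -5.61 with Lpar1+/+ fibroblasts and -5.83 in the Pla2g3+/+ coculture. In cells alone it read -1.52 for the label Pla2g3-/- and -1.63 for Pla2g3+/+, near the first 2 arrays. The summed level of 10 macrophage markers, cells that also make both cytokines, was 3.09 on the coculture array labelled Pla2g3-/- and 1.89 with Lpar1-/- fibroblasts, against 9.97 with Lpar1+/+ fibroblasts and 10.2 in the Pla2g3+/+ coculture, with 8 to 10 of them well above background on each of these arrays. Cd68, a lysosomal protein gene, made up the larger part of each sum, at a log2 level of 1.24 on the coculture array labelled Pla2g3-/- and 0.08 with Lpar1-/- fibroblasts, against 3.12 with Lpar1+/+ fibroblasts and 3.13 in the Pla2g3+/+ coculture. Of the macrophage markers compared, 4 of 9 were lower for the label Pla2g3-/- against Pla2g3+/+ (median -0.85, with 10.4% of all genes lower). With Lpar1-/- against Lpar1+/+ fibroblasts 4 of 10 were lower (median -0.51, with 8.83% of all genes lower), and 0 were higher in both. The part of the macrophage marker sum in these and the other differences among cocultures was not tested.

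Of the genes beside Il1rl1 in the IL-1 receptor cluster, 1 was higher and 2 lower in coculture than alone in both comparisons. On the arrays labelled Pla2g3-/- 4 were compared (median -1.02, against 0.12 over all genes, of which 18.7% were past 2-fold). In Pla2g3+/+ cells 5 were compared (median -0.77, against 0.13, with 20.6% past 2-fold). Il1r1, the IL-1 receptor, was at least 27.6-fold higher in coculture than alone on the arrays labelled Pla2g3-/- and 19.1-fold higher in Pla2g3+/+ cells. The fibroblast marker sum, given above, was also higher in coculture, and the part of fibroblast RNA in the Il1r1 level was not tested. Il18rap, a chain of the IL-18 receptor, was lower in coculture than alone, with a difference of -1.35 for the label Pla2g3-/- and -1.23 for Pla2g3+/+. Il1r2, a decoy receptor for IL-1, was lower as well, with -1.42 for the label Pla2g3-/- and -1.56 for Pla2g3+/+. Il18r1, the other chain of the IL-18 receptor, differed by -0.70 for the label Pla2g3-/- and -0.77 for Pla2g3+/+, below 2-fold. These 3 genes had the sign of the soluble Il1rl1 probe in both comparisons.

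The genes most like each member over the 6 arrays were taken by the smallest root mean square difference of log2 levels, each centred on its own mean, among 19747 genes well above background on all arrays. For Cish the nearest was Msmo1, an enzyme of sterol synthesis, at 0.15, then Rrp12 at 0.18 and Cdca7l at 0.19. Msmo1 read 3.05 on the coculture array labelled Pla2g3-/- and 2.90 with Lpar1-/- fibroblasts, against 4.97 with Lpar1+/+ fibroblasts and 4.99 in the Pla2g3+/+ coculture. For Csf2rb they were the unannotated TC1660977, Tph1 and Mdm4 (0.06 to 0.07), of which Tph1 encodes tryptophan hydroxylase, the first enzyme of serotonin synthesis. Csf2rb2 was nearest to Ly6a, Gm14440 and BC107364 (0.05), Stat5a to Gss, Kdm4b and the probe A_55_P2051596 (0.05 to 0.06), and Stat5b to Vps9d1, Irf2 and a transcript named by its Ensembl identifier alone (0.02). For Il1rl1, by its membrane probe, they were Pde11a, Cpa3 and Nrxn3 (0.03), of which Cpa3 encodes the mast cell carboxypeptidase. Kit was nearest to Pif1, AK087292 and Zfp35 (0.04), Kitl to Car11, Pisd and Slc5a6 (0.05 to 0.06) and Il3ra to Gm9234, Ndufb2 and Arhgdia (0.02 to 0.03). These distances describe 6 arrays, and all of them are below the scanner error of 0.20.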

How the data were processed

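Per the file headers, the authors extracted spot intensity with Agilent Feature Extraction 12.1.1.1 on an array design annotated on mm9, subtracting background, detrending over the slide and giving dim spots a surrogate value on which low levels partly rest. The marks for well above background, saturation and outliers are deposited as other values of 0 or 1. The deposited value table holds intensity divided by 1 constant per array (1268.76, 1230.44, 1469.88, 1243.09, 1520.37 and 1458.71 for Pla2g3+/+ and Pla2g3-/- alone, Pla2g3+/+ and Pla2g3-/- coculture, and Lpar1+/+ and Lpar1-/- fibroblasts). Its column medians were 0.0357, 0.0338, 0.0439, 0.0448, 0.0428 and 0.0483, with no centring, so scale and direction were settled. It was used as an alternative.

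Here, log2 processed intensity minus the array 75th percentile over 43020 noncontrol spots was taken, 84 to 115 outlier spots of each array were left out, and repeated spots of a probe were averaged. No spot was saturated, and no member spot was an outlier. Between 70.7% and 80.4% of spots were well above background. The probe with the highest mean stood for a gene in counts over genes. Where 1 array was dim, its level was held at the floor described for Il33. Gene names are those of the files, and no mm9 annotation was used, so the exon of a probe is not given. Each group has 1 array, so no model across arrays was fitted. The steps were tested on simulated data. Other settings were normexp (limma 3.58.1, offset 50), quantile normalization, the value table, the mean of probes, both or neither array required above background, a 1.5-fold threshold and outlier spots kept. Software was Python 3.11.15 and R 4.3.3.

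The members, the gene lists and the rules were chosen with earlier results of these data known. All members are named. Of each further list, up to 3 genes with the largest and 3 with the smallest difference past 2-fold in the coculture comparisons and in the Pla2g3 label comparison within coculture could be named, genes of 5 lists also within 2-fold, and the 3 nearest genes of each member measured on all arrays.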

Additional observations from a re-analysis of the deposited data

Results flagged for a closer look

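Stat5a had opposite signs in the coculture comparisons of both labels. Coculture minus alone was 1.28 on the arrays labelled Pla2g3-/- and -0.21 in Pla2g3+/+ cells, a difference of 1.49 (label Pla2g3-/- minus Pla2g3+/+). With 1 array per group this difference was not tested. The value in Pla2g3+/+ cells is close to the scanner error of 0.20. With the Lpar1+/+ fibroblast coculture minus Pla2g3+/+ cells alone it was -0.11, within that error.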

How the results depend on the processing

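Of 630 member differences recomputed under the settings other than the 1.5-fold threshold, 597 stayed within the scanner error of the value reported and 33 moved by more. No member past 2-fold changed direction. Some settings could not move a member difference, so the 597 overstate how far the values were tested. The requirement on both arrays changes only which members are counted. No member spot was an outlier, and the value table holds the same intensity over a constant near the one used here. The 33 included 10 of Il33, 14 under normexp, 10 with the mean of probes and 6 after quantile normalization. Members past 2-fold numbered 1 instead of 2 under normexp, and 1 when both arrays had to be above background, in the Pla2g3+/+ coculture comparison and in that with the other wild-type coculture, since Il33 dropped out. Il33 also dropped out of the Pla2g3 label and Lpar1 comparisons within coculture when both arrays had to be above background. At 1.5-fold they numbered 4 for coculture on the arrays labelled Pla2g3-/-, 7 for the label Pla2g3-/- in coculture against either wild-type coculture, 8 for Lpar1-/- fibroblasts and 7 for the difference between coculture effects. With the mean of probes Csf2rb2 was past 2-fold in Pla2g3+/+ coculture (-1.21), and Il1rl1 was -0.34, a mean over variants that differ. Under quantile normalization 49.1% of genes past 2-fold in Pla2g3+/+ coculture were higher, against 63.4%, and 50.3% on the arrays labelled Pla2g3-/-, against 61.0%. For the other wild-type coculture against Pla2g3+/+ alone it was 46.4%, against 62.9%. For the label Pla2g3-/- against the Lpar1+/+ fibroblast coculture it was 54.2%, against 44.1%, and for both wild-type cocultures 45.1%, against 81.4%. Under normexp Cish, Stat5a and Csf2rb stayed past 2-fold wherever they had been. No slide term was possible, since slide and coculture coincide. No paired analysis was possible because each group has 1 array. Levels near background, as of Kitl and Il33, are the least certain, and spot errors do not cover differences between cultures.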
